A study of Mus musculus with 18 samples.

Results

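The nuclear genes of oxidative phosphorylation were followed through mouse liver development on Affymetrix mouse genome arrays. Members were the genes whose single symbol in the array annotation starts with Nduf, Uqcr, Cox4 to Cox8 or Atp5, or is Sdha, Sdhb, Sdhc or Sdhd. The rule gave 179 probe sets for 90 genes, of 18194 genes with a single symbol on the array. By the known place of their products, 34 of these genes belong to complex I, 4 to complex II, 8 to complex III, 18 to complex IV and 17 to complex V. A further 8 encode complex I assembly factors (Ndufaf1 to Ndufaf8), and Ndufa4l2 is a paralog of Ndufa4. Of the 90 genes, 39 had 1 probe set and 51 had several, up to 6. A further 10 probe sets, annotated with several symbols of which at least 1 matched the rule, were not analysed here.

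All mice were of the outbred CD-1 stock, and the labels name no transgene or deleted gene. Liver was taken from normal females aged 10 weeks, with 2 arrays, and from embryos of 6 stages, daily between 10.5 and 14.5 days post conception (dpc) and at 16.5 dpc, with 2 arrays per stage. The embryo left after removal of its liver, here the rest of the embryo, had 1 array at each of 4 stages, 10.5 dpc, 11.5 dpc, 12.5 dpc and 14.5 dpc. The titles of these 4 samples speak of liver, against their source names, which were followed. Each embryonic sample pooled tissue from 5 embryos or more. Whether paired arrays came from separate litters is not said, so p-values measure only the spread between these samples.

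Oxidative phosphorylation makes ATP at the inner mitochondrial membrane. Complex I takes electrons from NADH and complex II, which is also succinate dehydrogenase of the citric acid cycle, takes them from succinate. Complex III passes them to cytochrome c and complex IV, cytochrome c oxidase, to oxygen, while complexes I, III and IV pump protons that drive the ATP synthase, complex V. Several complex IV subunits exist as paired isoforms, a general one and one known from heart and skeletal muscle (Cox6a2, Cox7a1, Cox8b), lung (Cox4i2) or testis (Cox6b2), and adult liver is known to use the general ones.

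The deposited values were linear intensities, and 2 features of the arrays touch every result below. The liver arrays hold 1216 to 1535 values below 0 each and those of embryos have a 99th percentile of 2481 to 2935, while the 4 rest-of-embryo arrays hold no value below 0 and have a 99th percentile of 5553 to 5953, so the tissues were compared after quantile normalization over all 18 arrays. The 2 adult arrays had 99th percentiles of 1325 (replicate 1) and 2285 (replicate 2), below every embryonic liver array, although their medians of 76.4 and 73.4 lay within the embryonic range of 69.8 to 79.5. Members are bright, so adult results are given as deposited and after quantile normalization. Across probe sets, the Pearson correlation of replicate arrays ran from 0.948 at 10.5 dpc to 0.980 at 14.5 dpc, with 0.961 for the adult pair. The hepatocyte product albumin (Alb) read 956 to 8941 on the embryonic liver arrays and 105 to 1220 on the rest-of-embryo arrays, and at each matched stage both liver arrays lay above the rest of the embryo.

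The promoter windows of 5 complex IV isoform genes are shown as examples of muscle, testis and general forms. RefSeq windows of 300 bases, 250 before to 50 after the transcription start on GRCm38.p6, were found for 74 of the 90 genes. Cox6a2 was not among the 74. Capitals mark matches, on either strand, to the core motifs of NRF1 (GCATGCGC), of the ETS family (CCGGAAG), of YY1 (AAGATGGCG), of estrogen-related receptors (TCAAGGTCA), of the E-box bound by myogenic factors (CAGCTG) and of MEF2 (by its name). The windows, 5′ to 3′ on the gene's strand, are those of Cox7a1 (chr7:30183921-30184220, plus strand), Cox8b (chr7:140900397-140900696, minus strand), Cox6b2 (chr7:4753045-4753344, minus strand), Cox6a1 (chr5:115348909-115349208, minus strand) and Cox7a2 (chr9:79759804-79760103, minus strand).
Cox7a1: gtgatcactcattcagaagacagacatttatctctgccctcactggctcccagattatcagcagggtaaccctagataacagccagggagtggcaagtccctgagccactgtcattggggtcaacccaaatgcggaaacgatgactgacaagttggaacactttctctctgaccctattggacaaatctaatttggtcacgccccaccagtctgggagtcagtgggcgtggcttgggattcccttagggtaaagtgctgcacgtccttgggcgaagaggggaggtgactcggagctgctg
Cox8b: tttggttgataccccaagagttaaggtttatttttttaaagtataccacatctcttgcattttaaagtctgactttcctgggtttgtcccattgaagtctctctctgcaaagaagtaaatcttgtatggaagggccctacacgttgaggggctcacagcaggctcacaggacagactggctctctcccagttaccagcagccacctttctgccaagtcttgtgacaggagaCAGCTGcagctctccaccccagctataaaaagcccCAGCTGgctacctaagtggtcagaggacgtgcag
Cox6b2: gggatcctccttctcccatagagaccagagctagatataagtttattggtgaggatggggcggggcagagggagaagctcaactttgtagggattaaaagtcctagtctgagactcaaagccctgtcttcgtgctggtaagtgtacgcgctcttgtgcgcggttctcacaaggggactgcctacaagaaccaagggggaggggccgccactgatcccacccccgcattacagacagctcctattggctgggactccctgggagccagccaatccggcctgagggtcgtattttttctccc
Cox6a1: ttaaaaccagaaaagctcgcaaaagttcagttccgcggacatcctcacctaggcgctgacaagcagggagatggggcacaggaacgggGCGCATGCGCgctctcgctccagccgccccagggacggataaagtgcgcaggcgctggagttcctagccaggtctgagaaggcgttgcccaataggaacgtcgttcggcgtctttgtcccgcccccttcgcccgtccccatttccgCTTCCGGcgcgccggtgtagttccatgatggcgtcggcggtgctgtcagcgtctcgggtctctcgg
Cox7a2: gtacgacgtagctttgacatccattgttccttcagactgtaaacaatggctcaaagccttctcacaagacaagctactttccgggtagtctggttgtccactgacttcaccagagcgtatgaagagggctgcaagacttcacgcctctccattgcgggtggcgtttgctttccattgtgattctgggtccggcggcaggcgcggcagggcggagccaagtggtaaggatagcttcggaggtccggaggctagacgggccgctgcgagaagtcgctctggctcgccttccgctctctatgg

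The Cox6a1 window holds 2 overlapping NRF1 matches, which are 1 palindrome read on both strands, and 1 ETS match, and the Cox8b window holds 2 E-box matches. The other 3 windows hold none of these letters. Over the first window of each gene, the NRF1 motif was present in 14.9% of the 74 member genes and 2.8% of 27025 genes, the ETS motif in 24.3% and 9.12%, the YY1 motif in 8.11% and 1.49%, and the estrogen-related receptor motif in 2.7% and 0.407%. The E-box was present in 8.11% of member genes and 16.1% of all genes, and the MEF2 motif in 0 member genes and 3.62% of all genes. A match is a description of the letters only.

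All 5 complexes stood among the brightest transcripts of every array. The median member intensity was 816 and 985 on the adult arrays, at percentiles of 97.0 and 97.2 of the array, and 1187 to 1438 on the 12 embryonic liver arrays, at percentiles of 97.2 to 97.6. Complex V had the highest median of the 5 complexes on these arrays, at 1014 and 1755 on the adult and 1965 to 2282 on the embryonic liver arrays. Complex I medians were 781 and 894 on the adult and 1085 to 1231 on the embryonic liver arrays, and intensities of different probe sets are not levels per transcript, so complexes are compared only in how they changed. The assembly factors were dimmer, at 149 and 225 on the adult and 228 to 295 on the embryonic liver arrays.

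**Figure D1:**
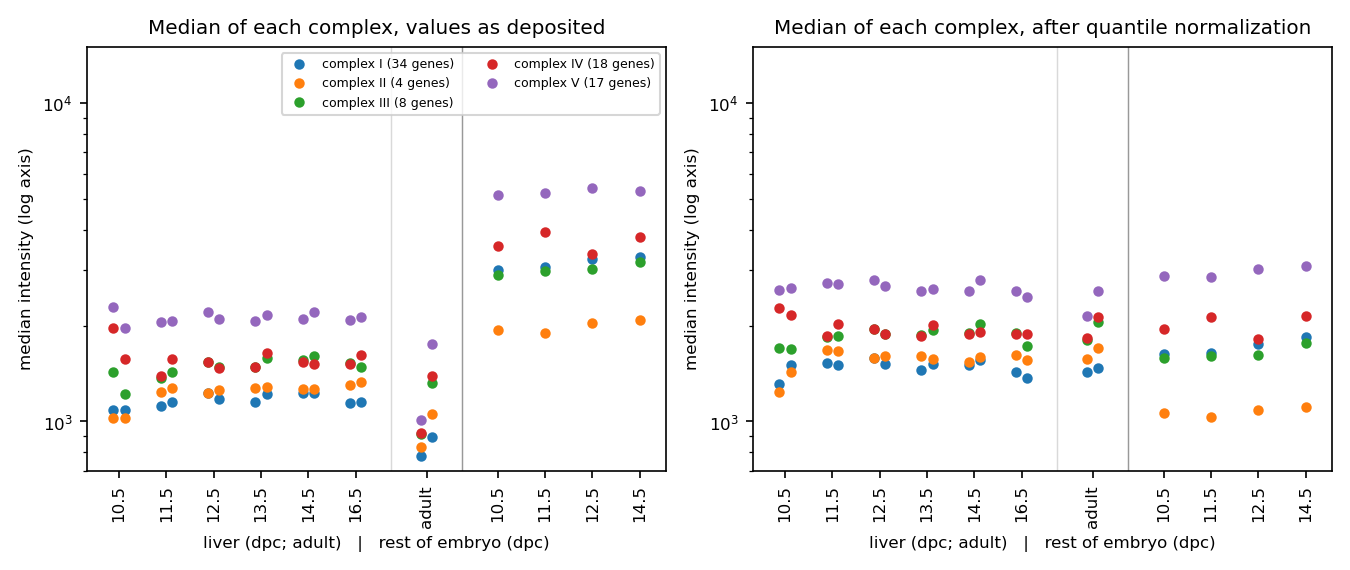
Median intensity of the members of each complex on each array (log y axis), as deposited (left) and after quantile normalization over all 18 arrays (right), for liver by age and then the rest of the embryo by age; each point is 1 array. As deposited, the rest of the embryo lies above embryonic liver in every complex, adult liver lies below it in complexes I, IV and V, and adult replicate 2 overlaps the 10.5 dpc arrays in complexes II and III; after normalization complex II, at 1035 to 1114 in the rest of the embryo, is the one complex whose medians there all lie below those in embryonic and adult liver.

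Between 16.5 and 10.5 dpc, 13 of 85 tested genes of oxidative phosphorylation passed the test. Differences are log2 values with their SE from limma, and a gene was called at a Benjamini-Hochberg adjusted p under 0.05 over all genes tested. Of 85 members tested, 10 were higher at 16.5 than at 10.5 dpc, where 20.6% of all 14126 genes tested were, and 3 were lower, where 15.1% were. The median difference was 0.09 over the members and 0.05 over all genes. By at least 1 log2, 1 member was higher and 1 lower, against 10.4% and 6.98% of all genes. The 5 members not tested in the liver (Ndufb4, Cox4i2, Cox7b2, Cox7c and Cox8b) did not exceed an intensity of 78.0 on 2 liver arrays. A change between any of the 6 stages was called for 8 of 85 members, against 29.9% of all genes, and the median range over stages was 0.31 log2 for members and 0.65 for all genes.

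These counts depend on the arrays and on the scaling. Without adult replicate 1, whose spread enters the shared error, 24 members were called between 16.5 and 10.5 dpc and 21 between any stages, and the same 2 counts were obtained without adult replicate 2. The 13 calls between 16.5 and 10.5 dpc became 5 without replicate 1 of 16.5 dpc, 7 without its replicate 2, 6 without replicate 1 of 10.5 dpc and 8 without any 1 of the 13.5 and 14.5 dpc arrays. After quantile normalization 7 members were higher and 11 lower, against 17.2% and 17.9% of all genes. With the 10.5 and 12.5 dpc arrays left out, 1 of 84 members (Cox6b2) was called between 16.5 and 11.5 dpc, and none by limma between any stages, where 3 had an unadjusted p under 0.05.

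In complex I, 6 of 33 tested genes (18.2%) were higher at 16.5 than at 10.5 dpc, where 20.6% of all genes were. On the brightest probe sets none was lower by limma, also at an unadjusted p under 0.05, where 15.1% of all genes were called lower. Another probe set of Ndufb2 was called lower (-0.44, adjusted p = 0.0185, limma over probe sets), where its brightest gave 0.06. The complex I median was 0.09, against 0.05 over all genes. Ndufb10, a membrane-arm subunit, read 1164 and 1217 at 16.5 dpc, against 805 and 777 at 10.5 dpc. It was higher at 16.5 dpc by 0.59 ± 0.12 log2 (adjusted p = 0.00229, limma), and both 16.5 dpc arrays lay above both 10.5 dpc arrays. The other 5, named after their values were seen, were Ndufb9 (0.47), Ndufv1 (0.44), Ndufs8 (0.40), Ndufa6 (0.35) and Ndufa8 (0.34). After quantile normalization complex I had 3 higher and 4 lower, where 17.2% and 17.9% of all genes were. Ndufs8 (adjusted p = 0.0542), Ndufa6 (0.152) and Ndufa8 (0.172, limma) were then not called, and Ndufv3 (-0.44), Ndufa12 (-0.37), Ndufb5 (-0.33) and Ndufs4 (-0.30) were called lower. Ndufv1 carries the site where NADH is oxidized and Ndufs8 holds iron-sulfur clusters on the path to ubiquinone. A second Ndufv1 probe set gave -0.04. The lowest difference of complex I as deposited was that of Ndufv3, an accessory subunit, at -0.37 ± 0.17 (adjusted p = 0.122, limma). Of the assembly factors, which act on complex I before it is complete, Ndufaf3 rose by 0.60 and Ndufaf2 and Ndufaf5 fell by 0.73 and 0.85, the other 5 not being called.

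In complex II, 1 of 4 genes passed the test. Sdhd, a membrane anchor of succinate dehydrogenase, read 1411 and 1361 at 16.5 dpc, against 930 and 997 at 10.5 dpc, and was higher by 0.53 ± 0.12 (adjusted p = 0.00448, limma). Its arrays at 11.5 dpc already read 1329 and 1461, and with 11.5 in place of 10.5 dpc the difference was -0.01. Its second probe set gave 0.27 (adjusted p = 0.323, limma over probe sets), so the call rests on 1 of 2. Sdhb, the iron-sulfur subunit, had the lowest value of the complex at -0.20 ± 0.18 (adjusted p = 0.466, limma), and was called lower after quantile normalization (-0.28, adjusted p = 0.0319, limma). In complex III, Uqcrc1, a core protein, rose by 0.28 ± 0.10 (adjusted p = 0.0496, limma) and 7 of 8 genes were not called, from Uqcrc2, the other core protein, at -0.02 to Uqcr10 at 0.40. After quantile normalization Uqcrc1 was not called (0.18, adjusted p = 0.262) and Uqcrq was called higher (0.29, adjusted p = 0.0427, limma).

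On its brightest probe set, no gene of complex V was called by limma between 16.5 and 10.5 dpc, in either direction, of 17 tested. None had an unadjusted p under 0.05 there. Another probe set of Atp5d was called higher (0.44, adjusted p = 0.0437, limma over probe sets), where its brightest gave 0.18. Of all genes, 20.6% were called higher and 15.1% lower. The range was -0.25 for Atp5o, the stalk protein OSCP, to 0.29 for Atp5h, stalk subunit d. After quantile normalization 1 gene, Atp5o, was called lower (-0.31, adjusted p = 0.0268, limma). The 3 genes of the c-ring, which rotates as protons pass, gave 0.24 (Atp5g1), -0.21 (Atp5g2) and -0.02 (Atp5g3).

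**Figure D2:**
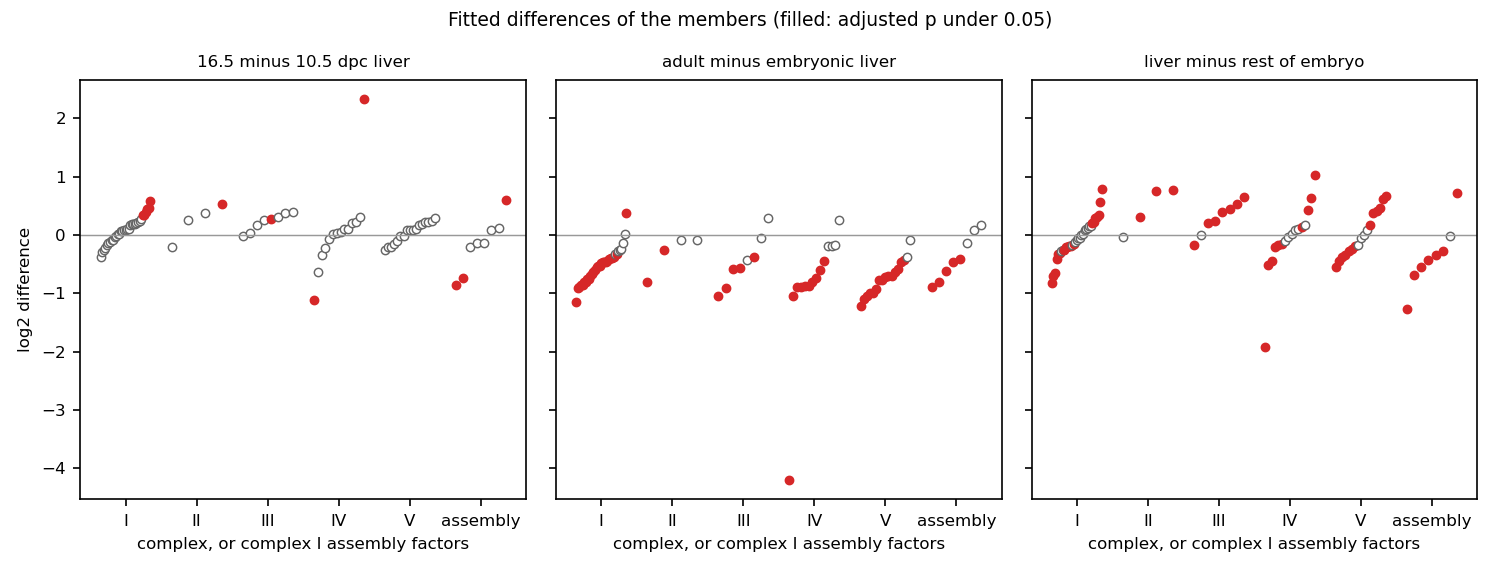
Fitted log2 difference of each tested member by complex (x axis; Ndufa4l2 is not drawn) for 16.5 minus 10.5 dpc liver, adult minus embryonic liver and liver minus rest of embryo. Filled points have an adjusted p under 0.05; Cox6b2 is the complex IV point at 2.33 and, in adult liver, at -4.20.

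In complex IV, 2 isoform genes changed by more than 1 log2, and on values as deposited no general subunit was called on its brightest probe set. None of Cox4i1 (0.21), Cox5a (-0.22), Cox5b (0.23), Cox6a1 (0.30), Cox6b1 (0.05), Cox6c (0.04), Cox7a2 (0.11), Cox7a2l (-0.35), Cox8a (0.10), Cox8c (-0.07) and Ndufa4 (0.02) was called at 16.5 against 10.5 dpc. A second, dimmer Cox8c probe set gave 1.16 (adjusted p = 0.00502 in a limma fit over probe sets), so the Cox8c value depends on the probe set. The same holds for Cox8a, with 1.42 on another, dim probe set (adjusted p = 0.00336, limma over probe sets). For Cox7a2l it holds too, with -0.75 and -0.57 on its others (adjusted p = 0.00953 and 0.0141, limma over probe sets). Cox7a2l was also called lower after quantile normalization (-0.41, adjusted p = 0.0112, limma). Cox7a2l is known as a supercomplex factor related to Cox7a, and Ndufa4, first named for complex I, as a cytochrome c oxidase subunit.

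Cox6b2, known as the testis form of subunit VIb, was the member that changed most. In the liver it read 141 and 115 (10.5 dpc), 529 and 447 (11.5 dpc), 602 and 484 (12.5 dpc), 620 and 648 (13.5 dpc), 652 and 676 (14.5 dpc) and 649 and 627 (16.5 dpc). The adult arrays read -66.6 and -46.8, below background, while its general partner Cox6b1 read 1279 and 3130 there. Both 10.5 dpc arrays lay below all later embryonic liver arrays, and both adult arrays below all embryonic ones. Cox6b2 was higher at 16.5 than at 10.5 dpc by 2.33 ± 0.15 log2, 5.02-fold (adjusted p = 1.1e-06, limma), and by 0.39 ± 0.12 at 16.5 against 11.5 dpc (adjusted p = 0.042, limma, in the fit without the 10.5 and 12.5 dpc arrays). Against the floor of 24.8 put under all values, it was at least 18.4-fold lower in adult than in embryonic liver. Both adult arrays stand at that floor and add no spread to its SE and adjusted p (1.92e-10, limma), which are too small. Cox6b2 passed the filter through embryonic arrays alone.

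The 3 genes whose log2 values were most like those of Cox6b2 over the 14 liver arrays were Ikzf1 (Pearson r = 0.996), a transcription factor of blood cells, Asns (0.996), which makes asparagine, and Kcnn4 (0.995), a potassium channel known from red cells. The correlation is a description over arrays that share their stage in pairs. Markers of red cells moved with Cox6b2, 11 of 12 tested being higher at 16.5 than at 10.5 dpc, with a median of 3.43, and 11 of 12 lower in adult than in embryonic liver. Their summed intensity over 13 genes was 29980 and 30490 at 16.5 dpc, with 2631 and 2308 at 10.5 dpc, and 837 and 908 in adult liver. Their part in the Cox6b2 values was not tested, and in tissue RNA fewer cells of a type cannot be told apart from less RNA per cell. At 11.5 dpc, Cox6b2 stood at 529 and 447 while that sum was 9745 and 7007.

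Cox6a2, the heart and skeletal muscle form of subunit VIa, went the other way. It read 431 and 255 (10.5 dpc), 158 and 187 (11.5 dpc), 169.5 and 262 (12.5 dpc), 126 and 140.1 (13.5 dpc), 164 and 109.8 (14.5 dpc) and 134.5 and 174 (16.5 dpc). The adult arrays read 161 and 153. The second 12.5 dpc array lay above 1 of the 10.5 dpc arrays, so the first stage overlaps a later one. It was lower at 16.5 than at 10.5 dpc by -1.12 ± 0.29 log2 (adjusted p = 0.0123, limma), and the call was lost without replicate 1 of 10.5 dpc (-0.74, adjusted p = 0.0974, limma), without replicate 1 of 16.5 dpc (-0.93, adjusted p = 0.0899, limma) and at 16.5 against 11.5 dpc (-0.17, adjusted p = 0.596, limma).

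Cox7a1, the muscle form of subunit VIIa, was dim and also highest at 10.5 dpc. It read 165.4 and 113 (10.5 dpc), 43.9 and 43.8 (11.5 dpc), 85.5 and 84.5 (12.5 dpc), 70.7 and 68.1 (13.5 dpc), 69.3 and 66.1 (14.5 dpc), 74.5 and 104 (16.5 dpc) and 47.7 and 35.8 in adult liver. Both 10.5 dpc arrays lay above all other liver arrays. A change between any embryonic stages was called (range 1.64 log2, adjusted p = 0.00388, limma), while 16.5 against 10.5 dpc gave -0.63 ± 0.23 with an adjusted p of 0.0501 (limma) and -0.71 with 0.0286 after quantile normalization.

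Heart muscle markers were highest in liver on the same arrays. Their summed intensity over 17 genes was 23500 and 12520 (10.5 dpc), 906 and 858 (11.5 dpc), 3229 and 10080 (12.5 dpc) and 1271 to 1541 from 13.5 to 16.5 dpc, and 1129 and 1109 in adult liver. Myl7, the atrial light chain, read 4203 and 2734 (10.5 dpc), 102 and 97.8 (11.5 dpc) and 127 and 1149 (12.5 dpc), and 15 of 17 markers were lower at 16.5 than at 10.5 dpc, with a median of -3.48. On the adult arrays Tnnt2 and Nppa stood at or near background (4.44 and 1.05, and 9.41 and -4.73), and Acta1, of skeletal muscle, read 76.7 and 157. The 3 genes most like Cox6a2 over the 14 liver arrays were Myh6 (Pearson r = 0.932), the cardiac myosin heavy chain, Fabp3 (0.929), a fatty acid binding protein of heart, and Smpx (0.926), a small muscle protein. Those most like Cox7a1 were Pkdcc (0.927), Bahd1 (0.925) and Fhl1 (0.908), and the part of heart tissue in either gene was not tested.

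Cox8b, the muscle form of subunit VIII, lay between 18.4 and 73.9 on all 14 liver arrays, too dim to be tested, while its general partner Cox8a lay between 1865 and 2513 in embryonic liver. Cox4i2, the lung form, read 56.5 and 76.6 in adult and 44.9 to 73.0 in embryonic liver and was not tested there either. Cox7b2 and both probe sets of Cox7c were dim as well, which for Cox7c, a general subunit, holds only for probe sets annotated with its symbol alone.

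Ndufa4l2, the paralog of Ndufa4 known to be induced in hypoxia, differed between replicates of 1 stage. It read 621 and 259 (10.5 dpc), 239 on both 11.5 dpc arrays, 208 and 220.4 (12.5 dpc), 243 and 197 (13.5 dpc), 314.5 and 189 (14.5 dpc), 191 and 329.9 (16.5 dpc) and 449.5 and 189 in adult liver. No difference was called (16.5 against 10.5 dpc -0.67 ± 0.47, adjusted p = 0.313; adult against embryonic liver 0.19 ± 0.36, adjusted p = 0.656; limma). The genes most like it, Ubl4b (Pearson r = 0.962), Trav6-3 (0.951), a T cell receptor segment, and Rrp1b (0.944), were split between the same replicates, with Ubl4b at 541 and 146 at 10.5 dpc and at 460.5 and 133 in adult liver.

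**Figure D3:**
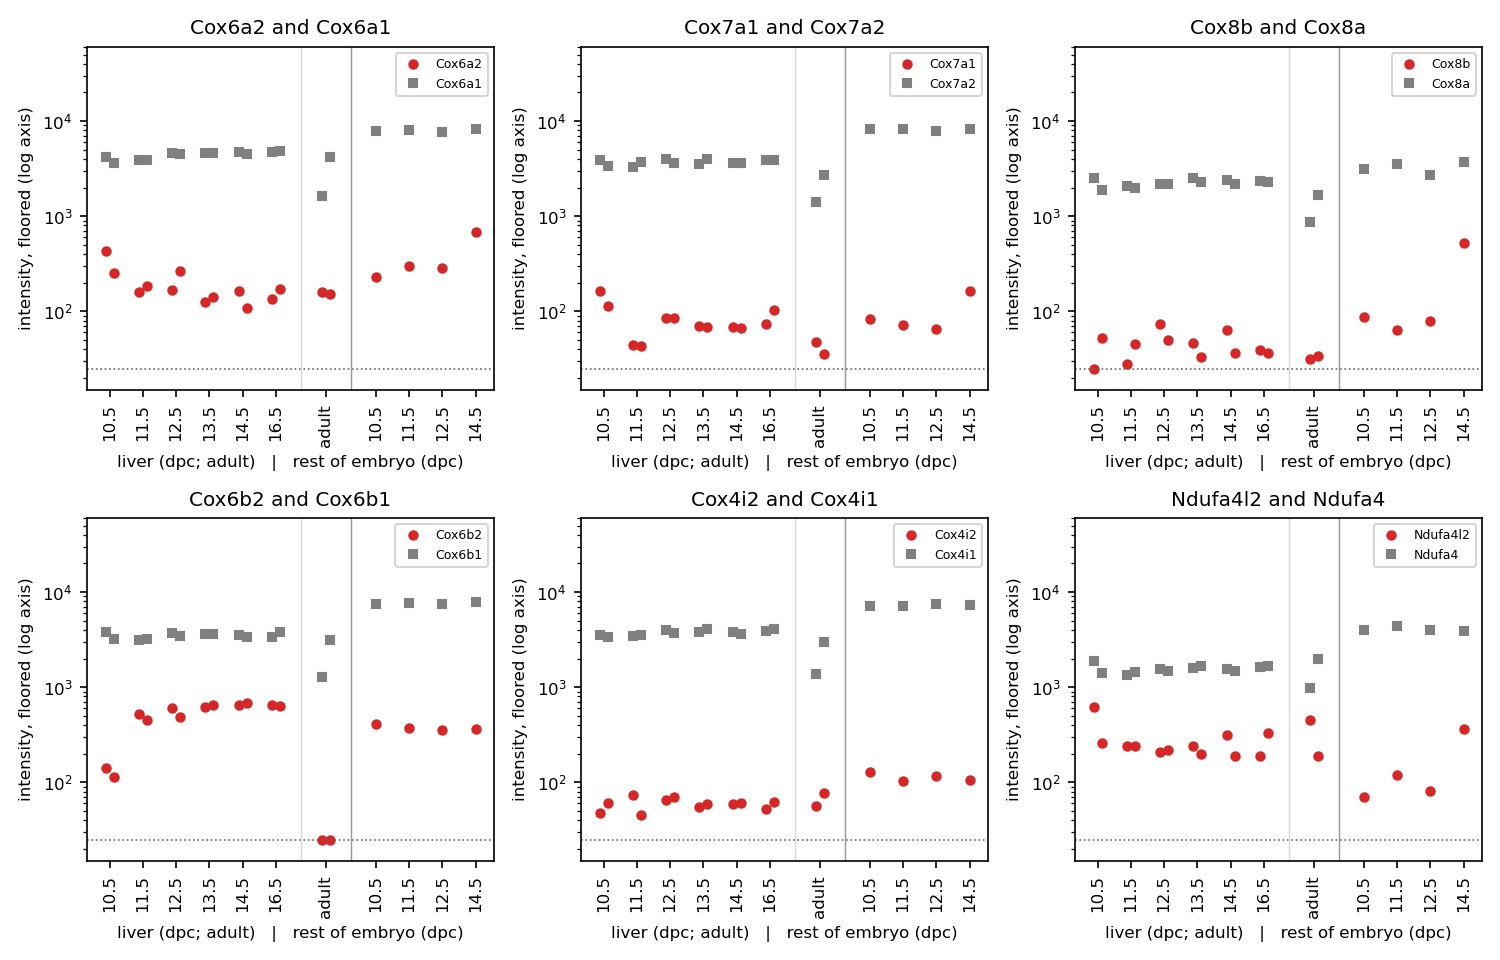
Intensity of 6 isoform genes (circles) and their general partners (squares) on each array, as deposited, on a log y axis with values raised to the floor of 24.8 (dotted line). Liver runs by age, then the rest of the embryo, whose arrays are of another form: Cox6b2 is lowest at 10.5 dpc among embryonic livers and at the floor in adult liver, and Cox6a2, Cox7a1, Cox8b and Ndufa4l2 are highest among the rest-of-embryo arrays at 14.5 dpc.

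As deposited, adult liver read lower than embryonic liver for most members. Of 85 tested, 63 were lower, where 42.6% of all genes were, and 1 was higher, where 23.7% were, with a median of -0.57 against -0.21 over all genes. By at least 1 log2, 7 were lower, where 23.7% of all genes were, and none higher, where 11.9% were. After quantile normalization 31 were lower and 18 higher, where 38.1% and 31.1% of all genes were, and the median was -0.09 against -0.05. Without adult replicate 1, 49 were lower and 4 higher with a median of -0.39, and without adult replicate 2, 68 were lower with a median of -0.69. The size of the members' shift thus depended on the scaling and on adult replicate 1. The balance of calls moved with the scaling, while without adult replicate 1 most calls were still lower.

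By complex, the medians as deposited were -0.48 (complex I, 26 of 33 lower), -0.17 (complex II, 2 of 4), -0.50 (complex III, 5 of 8), -0.77 (complex IV, 10 of 14), -0.72 (complex V, 15 of 17) and -0.44 (assembly factors, 5 of 8). After quantile normalization they were -0.08, 0.30, 0.01, -0.11, -0.16 and -0.28, with 3 of 4 complex II genes higher. Over all genes 42.6% were lower as deposited, with a median of -0.21. After normalization 31.1% of all genes were higher, with a median of -0.05. The difference between complexes was not tested.

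Some members kept their direction under both scalings. Ndufa6, an accessory subunit of complex I, read 936 and 897 in adult liver, against 588 to 816 (median 752.5) on the 12 embryonic arrays, with no overlap. It was higher in adult liver by 0.37 ± 0.09 as deposited (adjusted p = 0.00363) and by 0.87 ± 0.10 after quantile normalization (adjusted p = 1.96e-05, limma), the only member called higher as deposited. Ndufb1, another accessory subunit, was dim at 61.5 and 42.9 in adult liver, against 82.5 to 173 (median 107.4) in embryonic liver, and fell by 1.15 and, after normalization, by 1.20. Both adult values lie under the filter of 78.0, so Ndufb1 was tested through embryonic arrays alone, which favours a lower call.

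Atp5a1, the alpha subunit of the ATP synthase head, read 1231 and 1948 in adult liver, against 3336 to 4047 (median 3578) in embryonic liver. It was lower by -1.22 ± 0.15 as deposited (adjusted p = 2.25e-05) and by -0.64 ± 0.06 after normalization (adjusted p = 4.38e-06, limma), without overlap. Atp5k, subunit e, gave -1.10 and -0.60, Atp5o -1.04 and -0.55, Cox5b -1.04 and -0.51, and Uqcrh, the hinge protein of complex III, -1.04 and -0.56, all 4 called under both scalings. Sdhd, at 669 and 799 against 930 to 1461 (median 1325), gave -0.80 and -0.39 and was called both times, while its second probe set gave -0.22 as deposited (adjusted p = 0.202, limma over probe sets). Cox7a1, at 47.7 and 35.8 in adult liver, gave -0.90 and -0.96 (adjusted p = 0.00081 and 0.000435, limma). It too was tested through embryonic arrays alone.

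For others the scaling set the call or the sign. Cox6a1 read 1635 and 4224 in adult liver, against 3615 to 4875 (median 4588) in embryonic liver, and gave -0.74 ± 0.25 as deposited (adjusted p = 0.0214) and 0.06 ± 0.10 after normalization (adjusted p = 0.618, limma). Replicate 1 lay far below all embryonic arrays and replicate 2 within them. Cox4i1 gave -0.87 and -0.17, Cox6b1 -0.80 and -0.15, Cox7a2l -0.60 and -0.07, and Cox6c -0.44 and 0.22, the last called in both directions. Cox7a2 (-0.90 and -0.20) and Cox8a (-0.88 and -0.45) were called lower both times. Cox5a (-0.19 and 0.57), Ndufa4 (-0.17 and 0.29) and Sdhc (-0.08 and 0.36) were called only after normalization, as was Atp5j, coupling factor 6 of the stalk (-0.09 and 0.41). Sdha was called in both directions (-0.26 and 0.24). Other probe sets were called opposite to the brightest one as deposited for Sdha (0.39), Cox8a (0.89) and Uqcr10 (1.06 against -0.91).

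Uqcrq, a small subunit of complex III, read 1122 and 1969 in adult liver, against 916 to 1339 (median 1284), and gave 0.29 ± 0.16 as deposited (adjusted p = 0.133) and 0.81 ± 0.08 after normalization (adjusted p = 3.12e-06, limma). Cox8c, a paralog of Cox8a, gave 0.25 (adjusted p = 0.0644) and 0.54 (adjusted p = 0.001, limma). Cox6a2 was not called under either scaling (-0.19 and -0.04).

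**Figure D4:**
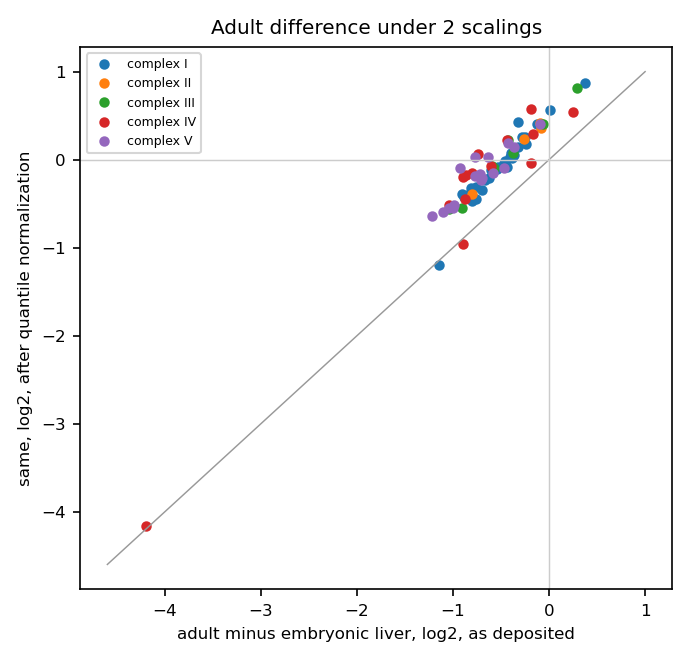
Adult minus embryonic liver, log2, of each tested member of the 5 complexes as deposited (x axis) and after quantile normalization over the 14 liver arrays (y axis); the grey diagonal marks equal values. Apart from Ndufb1 and Cox7a1 the drawn members lie above the diagonal, and Cox6b2, at the lower left, is at the floor in adult liver in both.

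Between tissues at matched stages, members were called in both directions at shares near or below those of all genes. Of 87 tested after quantile normalization, 28 were higher in liver than in the rest of the embryo, where 31.4% of all 14730 genes tested were, and 32 were lower, where 40% were. The median was -0.03, against -0.11 over all genes. By at least 1 log2 on the brightest probe sets, 2 were higher and 2 lower, against 19.7% and 19.4% of all genes. With values as deposited, which differ in form between the tissues, 1 of 88 was higher and 82 were lower, where 18.2% and 67.5% of all genes were.

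Complexes II and III held most of the higher calls for their size. In complex II, 3 of 4 genes were higher in liver, with a median of 0.53, and in complex III 6 of 8, with a median of 0.31. Complex I had 7 higher and 12 lower of 33 (median -0.08), complex IV 4 and 6 of 16 (-0.01), complex V 6 and 7 of 17 (-0.05) and the assembly factors 1 and 6 of 8 (-0.38). Under values as deposited all 4 genes of complex II and all 8 of complex III were lower in liver, with medians of -0.71 and -0.90 against -1.04 over all genes.

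Sdhd, in normalized intensity, read 1119 and 1390 at 10.5 dpc, 1772 and 1907 at 11.5 dpc, 1652 and 1621 at 12.5 dpc, with 1620 and 1658 at 14.5 dpc in liver, against 893, 909, 912 and 995 in the rest of the embryo. Every liver array lay above every rest-of-embryo array, and the difference was 0.77 ± 0.09 (adjusted p = 3.42e-05, limma), but the second Sdhd probe set gave -0.07 (adjusted p = 0.729, limma over probe sets). Sdhc, the other membrane anchor, was higher by 0.76 ± 0.11 (adjusted p = 0.000127, limma), Sdha, the flavoprotein, by 0.31 (0.05 on its second tested probe set, and -0.94 as deposited), and Sdhb gave -0.03 (adjusted p = 0.743, limma). In complex III the values ran from -0.18 for Uqcrb, which was lower, to 0.65 for Uqcrq, with Uqcr10 at 0.53 and Uqcrh at 0.39. Other probe sets differed, Uqcrh giving -0.35 (adjusted p = 0.000641), Uqcr10 0.10 (adjusted p = 0.307) and Uqcrq 1.13, -0.27 and -0.46 (adjusted p = 0.00984, 0.228 and 0.0232, limma over probe sets).

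In complex I the extremes on the brightest probe sets were 2 accessory subunits. Other probe sets reached further in both directions, among them those of Ndufc2 (4.55), Ndufs4 (3.69), Ndufab1 (1.41 and -0.88) and Ndufb2 (-1). The brightest probe sets of these genes gave -0.25, -0.70, 0.08 and 0.21. Ndufa7 read 2947 to 4373 in normalized intensity on the 8 matched liver arrays, against 1791 to 2060 in the rest of the embryo, and was higher by 0.79 ± 0.09 (adjusted p = 2.88e-05, limma) on its brightest probe set. Of its 4 other probe sets, 2 were higher in liver (1.11 and 0.88) and 2 were lower (-0.44 and -0.37, adjusted p = 0.000229 and 0.00126, limma over probe sets). Ndufa6 was lower by -0.82 ± 0.10 (adjusted p = 3.92e-05, limma), at 721 to 1006 in liver and 1222 to 1966 in the rest of the embryo, so on these probe sets neither gene overlapped between the tissues. In complex V the c-ring genes were all higher in liver, Atp5g1 by 0.66, Atp5g2 by 0.61 and Atp5g3 by 0.17, and Atp5e, the epsilon subunit, was lowest at -0.55. Atp5a1 gave 0.37 on its brightest probe set and 0.01 and -1.60 on its other probe sets.

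Of the isoform genes, Cox6b2 was higher in liver by 1.03 ± 0.36 (adjusted p = 0.0243, limma), and the call was lost without the rest-of-embryo array of 11.5 dpc (0.92), of 12.5 dpc (0.84) or of 14.5 dpc (0.72) and with values as deposited (0.04), where the rest of the embryo read 406, 372, 355 and 366 in stage order. At 10.5 dpc liver was the lower tissue, with normalized intensities of 164.7 and 127.6, against 258.5 in the rest of the embryo, and at the 3 later stages it was the higher on both arrays, at 585 to 853 against 211 to 251. Ndufa4l2 was higher by 1.73 ± 0.36 (adjusted p = 0.00127, limma). Cox7c gave -1.92 ± 0.16 on its dim probe set, at 11.7 to 42.3 on the liver arrays and 130 to 148 in the rest of the embryo as deposited, so its size depends on the floor. It too passed the filter only through the rest-of-embryo arrays. Ndufaf5 was lower by -1.26 ± 0.14 (adjusted p = 1.65e-05, limma).

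Cox8a (0.63), Cox8c (0.43) and Cox5b (0.13) were also called higher in liver, and Cox4i2 (-0.51), Cox7a2l (-0.44), Ndufa4 (-0.21), Cox7a2 (-0.18) and Cox6b1 (-0.15) lower. Cox4i2 exceeded the filter of 78.0 on the rest-of-embryo arrays, at 78.7 to 103 in normalized intensity. In liver it did so on replicate 1 of 11.5 dpc alone, at 81.5, so the filter favours a lower call. Cox6a1 (0.08), Cox6c (-0.03), Cox5a (-0.11), Cox4i1 (0.01), Cox6a2 (0.10) and Cox7a1 (0.17) were not called. Other probe sets were called for Cox6c (-0.55), Cox6a1 (0.23) and, opposite to the brightest, Cox6b1 (0.24). Cox6a2 read 232, 297, 283 and 687 as deposited in the rest of the embryo from the first to the last stage, Cox7a1 83.3, 71.3, 66.1 and 165.4, and Cox8b 86.9, 63.6, 79.9 and 527. The 14.5 dpc array was the highest for all 3 muscle forms. Skeletal muscle markers, summed over 12 genes, read 3281, 5759, 11240 and 52670 on these arrays, with Acta1 at 611, 809, 1819 and 9599 but Ckm only at 88.3 to 134.9, and their part in the isoform values was not tested.

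The tissue difference moved with stage for few members. Of 87 tested, 4 fell and none rose by limma in log2 per day, where 7.67% and 5.97% of all genes did, and 2 of those with a positive slope had an unadjusted p under 0.05. The 4 were Cox6a2, Ndufa5, Ndufb5 and Atp5j.

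Other genes of mitochondrial energy supply were read from lists that hold no member. Of all genes tested, 20.6% were higher at 16.5 than at 10.5 dpc and 15.1% lower, with a median of 0.05. Between 16.5 and 10.5 dpc, 5 of 41 further assembly factors were higher and 5 lower (median -0.08), 4 and 2 of 15 electron carriers and chain regulators (0.10), 4 and 1 of 11 coenzyme Q synthesis genes (0.49), 3 and 1 of 18 citric acid cycle and pyruvate dehydrogenase genes (0.11), 4 and 2 of 19 regulators of mitochondrial biogenesis (-0.05), 4 and 1 of 47 proteins of the large mitochondrial ribosomal subunit (0.13) and 4 and 1 of 30 of the small one (0.04). Pet100, a cytochrome c oxidase assembly factor, rose by 0.90 and Slc25a4, the muscle and heart ADP/ATP carrier, was lower by -1.41. Ogdh, of the citric acid cycle, rose by 1.33, Pdss2, of the coenzyme Q side chain, by 0.90, Mterf1a by 0.96, Mrpl35 by 0.86 and Mrps28 by 0.63.

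ND5, a complex I subunit encoded in mitochondrial DNA and so no member, rose by more than the 6 called complex I members. It read 5626 and 5292 at 16.5 dpc, against 2099 and 2872 at 10.5 dpc, and was higher by 1.15 ± 0.25 (adjusted p = 0.00451, limma). All later embryonic liver arrays lay above the 10.5 dpc pair. In adult liver it was not called as deposited (0.04) and was called higher after quantile normalization (0.54), at 3623 and 6753.

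In adult against embryonic liver, 41 of 47 proteins of the large mitochondrial ribosomal subunit were lower as deposited (median -0.81) and 32 lower and 2 higher after quantile normalization (-0.49). Of all genes, 42.6% were lower and 23.7% higher as deposited (median -0.21). After normalization 38.15% of all genes were lower and 31.09% higher (-0.05). For the small subunit the counts were 20 lower and 1 higher of 30 (-0.67), and 18 and 2 after normalization (-0.38). Citric acid cycle genes gave 12 lower and 2 higher of 18 (-0.47), electron carriers 9 and 2 of 15 (-0.59), biogenesis regulators 10 and 1 of 19 (-0.32), coenzyme Q genes 4 and 4 of 11 (-0.11) and assembly factors 14 and 5 of 41 (-0.11). After normalization these were 8 lower and 4 higher for citric acid cycle genes, 6 and 6 for electron carriers, 9 and 2 for biogenesis regulators, 2 and 4 for coenzyme Q genes and 11 and 12 for assembly factors. Slc25a4 fell by 4.31, Dap3 by 1.93, Idh3a by 1.81, Yy1 by 1.31 and Mrpl35 by 1.19, while Sco2, a copper chaperone of complex IV, rose by 2.29 and Coq8a by 3.19.

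In liver against the rest of the embryo, electron carriers were higher for 10 and lower for 3 of 15 (median 0.33) and large mitochondrial ribosomal proteins for 18 and 6 of 47 (0.07). The counts were 8 higher and 14 lower of 41 for assembly factors (-0.20), 1 and 3 of 12 for coenzyme Q genes (-0.16), 5 and 9 of 18 for citric acid cycle genes (-0.16), 6 and 6 of 19 for biogenesis regulators (-0.04) and 4 and 5 of 30 for small ribosomal proteins (-0.06). These counts are after quantile normalization, where 31.4% of all genes were higher and 40% lower, with a median of -0.11. As deposited, electron carriers were 0 higher and 12 lower and large ribosomal proteins 1 and 44, so these splits rest on the scaling. Of all genes, 18.19% were then higher and 67.55% lower. Cox15, which makes heme A for complex IV, was higher by 1.53, Etfb by 0.87, Suclg2 by 1.14, Polrmt by 2.41, Mrpl50 by 1.46 and ND5 by 0.65 (as deposited ND5 was called lower, at -0.38), and Coq10a (-1.66) and Mrps33 (-0.53) were lower. Of the marker lists, hepatocyte genes were higher in liver for 13 of 13 and red cell genes for 11 of 12, with 1 lower. Lower in liver were 9 of 12 skeletal muscle genes, of which only 6 were tested within liver, and 4 of 8 smooth muscle and vessel wall genes. Neural genes were lower for 8 and higher for 1 of 9, and heart genes lower for 4 and higher for 1 of 17. In liver at 16.5 against 10.5 dpc, 13 of 15 hepatocyte genes were higher, 2 of 6 skeletal muscle genes higher, 7 of 8 smooth muscle and vessel wall genes lower and 4 of 8 neural genes lower with 1 higher. In adult against embryonic liver, 15 of 15 hepatocyte genes were higher, and 8 of 17 heart, 5 of 6 skeletal muscle, 6 of 8 smooth muscle and 6 of 8 neural genes were lower, with 1 heart and 1 smooth muscle gene higher.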

How the data were processed

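RNA from 18 samples was isolated with Trizol and read on 1 Affymetrix array each as biotin-labelled cRNA, per the labels' protocols. The values are probe set intensities on a linear scale, as the authors deposited them in 1 table, while their summary and scaling method was not given in the sources used here. Groups come from the source names. For adult liver, a protocol entry speaks of resection but title, source and description of normal tissue, which was followed.

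Here, values under 24.8 (20th percentile of the table) were set to it before log2, since the deposited values are not on a log2 scale. Where a gene had several probe sets the brightest by mean log2 stood for it, and a gene was tested where it exceeded 78.0, the 50th percentile, on at least 2 arrays of a fit. The test was limma 3.58.1 under R 4.3.3 (lmFit, then eBayes with trend), two-sided and with Benjamini-Hochberg adjustment over all genes. The 14 liver arrays entered 1 fit as deposited with 7 residual degrees of freedom. The tissues were compared over 12 arrays with stage as a factor, after quantile normalization over all 18. The number of arrays and the signal over background limit the precision. Code was tested on simulated data with known changes. Whether replicate numbers pair samples is not said, and no block was used in the main fit.

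The members, gene lists and tests were chosen with earlier results of these data known. Named are the isoform genes, the members with the largest and smallest difference per complex and comparison, members called with at least 1 log2, the called gene of smallest adjusted p of each other list, marker genes, and the 3 genes most like an isoform gene; others are said to be named after their values were seen. The lists are further assembly factors, electron carriers and regulators, coenzyme Q synthesis, citric acid cycle, biogenesis regulators, both mitochondrial ribosomal subunits, mitochondrially encoded subunits, and markers of heart, skeletal and smooth muscle, red cells, hepatocytes and neural tissue. All 90 members matched the RefSeq gene table by gene identifier, and symbols are those of the array annotation. Alternatives varied the scaling, floor, filter, probe set choice, variance model, stages and arrays. Figures were drawn with matplotlib 3.10.9.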

Additional observations from a re-analysis of the deposited data

Results flagged for a closer look

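The difference between liver and the rest of the embryo moved with day for 4 members, by the limma interaction of tissue with day. Cox6a2 gave -0.59 ± 0.15 log2 per day (adjusted p = 0.029). In normalized intensity it read 529 and 316 in liver against 166 in the rest of the embryo at 10.5 dpc, 192 and 225 against 209 at 11.5 dpc, 197 and 325 against 190.1 at 12.5 dpc and 185 and 119 against 370.1 at 14.5 dpc. Liver was thus the higher tissue on both arrays at 10.5 dpc and the lower on both at 14.5 dpc. Ndufa5, an accessory subunit of complex I, gave -0.18 ± 0.05 (adjusted p = 0.026, limma), Ndufb5, a membrane-arm subunit, -0.13 ± 0.03 (adjusted p = 0.023, limma) and Atp5j -0.13 ± 0.04 (adjusted p = 0.0315, limma). With 1 rest-of-embryo array per stage, no member was called by limma once the 14.5 dpc array was left out, where 1 had an unadjusted p under 0.05, and between 0 and 5 were called without any 1 array.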

How the results depend on the processing

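The tissues were deposited in different forms of value, a stage has at most 2 arrays, and adult replicate 1 is dim on bright probe sets, so member results between tissues and for adult liver rest on the scaling chosen. Over 2774 recomputed values of named members, 2531 kept their direction and side of the threshold, 62 newly passed it, 120 no longer did and 61 turned; the cause was not tested. Under quantile normalization, over 14 or 18 arrays (the second chosen after seeing the data), adult liver gave 18 members higher, 31 lower and a median of -0.09. The tissue comparison gave 1 higher, 82 lower and a median of -1.17 as deposited, and 1, 75 and -0.78 after median centring. Median centring put the median of 16.5 against 10.5 dpc at -0.03 and left 2 slopes by day, a fit of all 18 arrays gave 7 slopes and a fit without the intensity trend 1.

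Without the 10.5 and 12.5 dpc arrays, limma called 1 member late against early, 0 between any stages (3 of 84 at an unadjusted p under 0.05), 2 higher in adult liver, and 0 slopes (24 of 86 at an unadjusted p under 0.05). Members higher in adult liver numbered 0 against 16.5 dpc alone (1 at an unadjusted p under 0.05), 2 without the filter, 2 with the mean over probe sets, whose median was -0.43, and 5 probe sets in the fit over probe sets. Same-numbered replicates of 2 groups deviated with correlations of -0.35 to 0.25 over 21 pairs of groups. These correlations cannot settle whether the numbers pair samples, which the sample names do not say. The replicate block gave 9 members at 16.5 against 10.5 dpc, 7 between any stages, and 1 higher and 62 lower in adult liver, and moved no count past 1.5 times.

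Leaving out 1 array at a time gave 5 (without replicate 1 of 16.5 dpc) to 24 (without either adult array) members called at 16.5 against 10.5 dpc with medians of 0.00 to 0.17, 4 to 21 between any stages, 1 to 4 higher and 49 to 68 lower in adult liver with medians of -0.69 to -0.39, 23 to 29 higher and 25 to 33 lower between tissues with medians of -0.09 to -0.01, and 0 to 5 slopes. Calls between any stages were 4 or 5 without replicate 1 of 10.5 dpc or any 1 array of 12.5 to 16.5 dpc.

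Signs turned as follows, for members named by the rule. Adult against embryonic liver under quantile normalization over 14 arrays: Atp5g3 0.03, Atp5h 0.03, Atp5j 0.41, Cox5a 0.57, Cox6a1 0.06, Cox6c 0.22, Ndufa4 0.29, Ndufb10 0.14, Sdhb 0.42, Sdhc 0.36 and Uqcrb 0.22. Over 18 arrays: Atp5g3 0.03, Atp5h 0.03, Atp5j 0.40, Cox5a 0.52, Cox6a1 0.05, Cox6c 0.20, Ndufa4 0.28, Ndufb10 0.14, Sdhb 0.41, Sdhc 0.35 and Uqcrb 0.20. With 1 array left out, Cox6c reached 0.02 and Ndufa4 ran from -0.68 to 0.35, the upper values being those without adult replicate 1. Liver against rest of embryo as deposited: Atp5a1 -0.71, Atp5g1 -0.57, Atp5g2 -0.62, Atp5g3 -0.81, Cox4i1 -1.0, Cox5b -0.98, Cox6a1 -0.91, Cox8a -0.58, Cox8c -0.58, Ndufa7 -0.39, Ndufb10 -0.90, Sdhc -0.47, Sdhd -0.47, Uqcr10 -0.72, Uqcrc2 -1.03, Uqcrh -0.80 and Uqcrq -0.59. After median centring: Atp5a1 -0.32, Atp5g1 -0.17, Atp5g2 -0.22, Atp5g3 -0.42, Cox4i1 -0.61, Cox5b -0.58, Cox6a1 -0.52, Cox8a -0.19, Cox8c -0.18, Ndufb10 -0.51, Sdhc -0.08, Sdhd -0.08, Uqcr10 -0.32, Uqcrc2 -0.63, Uqcrh -0.40 and Uqcrq -0.20. Among members that the rule did not name in the comparison, quantile normalization over 14 arrays also turned Ndufa7 (0.43), Ndufa8 (0.03), Ndufb5 (0.05), Ndufb9 (0.26), Ndufs8 (0.26) and Sdha (0.24) in adult liver, all negative as deposited. So did Atp5d (0.14), Ndufa13 (0.07), Ndufaf7 (0.14), Ndufb6 (0.18), Ndufc1 (0.40), Ndufs3 (0.02), Uqcr11 (0.40), Uqcrfs1 (0.08) and Atp5pb (-0.43 to 0.19, called in both directions). At 16.5 against 10.5 dpc it turned, among others, Cox6b1 (-0.08), Cox6c (-0.02), Cox7a2 (-0.01), Ndufa4 (-0.06), Ndufa7 (-0.11), Uqcrb (-0.02), Atp5mpl (-0.01), Ndufab1 (-0.02), Ndufb2 (-0.01) and Ndufs3 (-0.05), uncalled both times. Values as deposited also turned Cox6a2 (-0.76), Cox7a1 (-0.23), Ndufa5 (-1.23), Ndufb1 (-0.42), Ndufb9 (-1.11), Ndufv1 (-0.95) and Sdha (-0.94) between tissues. Others turned there too, among them Atp5b (-0.53), Atp5d (-1.12), Atp5mpl (-0.83), Ndufa10 (-0.96) and Ndufab1 (-1.14). With the mean over probe sets, Atp5a1 was -0.41 and Cox6b1 0.04 between tissues and Cox8c 0.54 at 16.5 against 10.5 dpc. Sdhd was -0.01 at 16.5 against 11.5 dpc.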
